A study of Mus musculus with 13 samples.

Results

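The SLC25 mitochondrial carriers were examined in the liver of mice treated with streptozotocin (STZ) and of control mice. Members were all genes whose symbol is Slc25a followed only by digits, taken from probe sets that the platform annotation gives a single symbol. The rule found 50 probe sets for 46 genes, of 19938 named genes on the array, and where a gene had several probe sets the one with the highest mean signal was used. The measured carriers were ordered by signal in control livers and compared between groups by substrate class.

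All mice were male, wildtype C57BL/6N and 5-6 months old at sampling. Of these, 6 had received STZ, a DNA-alkylating glucose analogue toxic to pancreatic beta cells, and 7 had been mock-injected with citrate buffer according to the sample labels, while the series text describes the controls by a standard diet. STZ was injected i.p. at 65 mg/kg on 5 consecutive days, starting from 10- to 16-week-old animals, and tissue was collected 9-11 weeks later. Because STZ also reaches the liver directly, a direct effect of the drug and an effect of insulin deficiency cannot be told apart in this design. Total RNA of each liver was hybridised to 1 Affymetrix array, and the values are log2 signals. The label numbers were 1 to 7 in controls and 29 to 32, 40 and 42 in STZ mice, so any batch that followed the numbers cannot be told apart from the treatment.

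SLC25 proteins form the largest family of solute carriers and sit mostly in the inner mitochondrial membrane, which is otherwise closed to most metabolites. Each has a fold built of tandem repeats that alternates between an outward and an inward open state, and many exchange a substrate for a counter-substrate. In hepatocytes they link the matrix steps of the urea cycle, gluconeogenesis, fatty acid oxidation and ATP synthesis to steps in the cytosol, and they supply citrate for cytosolic lipid synthesis.

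Of the 46 carriers, 11 (23.9%) passed the test at an adjusted p under 0.05 (limma with Benjamini-Hochberg adjustment over all 19938 genes), against 9.12% of all genes. Of the 11, 4 rose in STZ livers (5.09% of all genes rose) and 7 fell (4.04% of all genes fell). The 4 that rose were the ornithine carrier Slc25a15, the glutamate carrier Slc25a22, the aspartate-glutamate carrier Slc25a12 and Slc25a48. The 7 that fell were the citrate carrier Slc25a1, the ATP-Mg/phosphate carrier Slc25a23, the pyrimidine nucleotide carrier Slc25a33, the carnitine-acylcarnitine carrier Slc25a20, the branched-chain amino acid carrier Slc25a44, Slc25a30 and the liver-enriched Slc25a47. Fold changes of the 11 lay between 1.24 and 1.86. The median difference of the 46 was 0.01 on the log2 scale and that of all genes -0.01, with 25 carriers above 0 and 21 below. The median size of the difference, sign set aside, was 0.14 for the carriers and 0.07 for all genes. Bright genes were called more often than dim ones, and all 11 were among the 32 carriers brighter than the median gene (34.4% called, against 15.4% of all genes that bright). Above the upper quartile of mean signal over all arrays, 9 of 26 carriers (34.6%) were called, against 19.4% of all genes that bright. The count was 7 without STZ replicate 1, of which 4 were lower, and without control replicate 7 there were also 4 lower carriers. The exact rank-sum test called 5 carriers, namely Slc25a15, Slc25a1, Slc25a23, Slc25a33 and Slc25a16. Its adjusted p was 0.0628 for Slc25a30, 0.0874 for Slc25a22, Slc25a12, Slc25a44 and Slc25a48, and 0.161 for Slc25a20 and Slc25a47.

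Hepatocyte markers had mean signals of 13.28 to 13.37 in control and 13.28 to 13.33 in STZ livers, among the brightest values of the arrays. Of the 6 markers, 3 were called, Ttr (-0.18 ± 0.05) and Apoa1 (-0.23 ± 0.06) lower and Cps1 (0.16 ± 0.04) higher. Over all genes the share called was 9.12%, and above the upper quartile of mean signal it was 19.4%. Macrophage markers stood higher, with a list mean of 8.55 to 8.98 in controls and 8.72 to 9.33 in STZ livers, above all controls in 5 of 6 STZ arrays, and 3 of 6 of these genes were called. For the endothelial list, 4 of 6 STZ livers exceeded every control, and 1 of 5 genes was called. Of 5 stellate cell markers 1 was higher and 1 lower. The erythroid marker Alas2 lay between 10.44 and 10.76 in controls and between 7.85 and 10.30 in STZ livers. The part of these cells in the carrier differences was not tested. In bulk liver, fewer cells of a type and less RNA per cell cannot be told apart.

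The promoters of the carriers with the clearest separation between groups show what kind of sequence lies before these genes. In 4 of the 11 called carriers (Slc25a15, Slc25a1, Slc25a33 and Slc25a23) the values of the groups did not overlap. These were 4 of 46 carriers, and 3.86% of all genes had no overlap in either direction. In the RefSeq promoter table (build GRCm38.p6), which lists 36 of the 46 carriers, the first 3 of these hold the palindromic E-box CACGTG within 250 bases before a start, and the listed windows of Slc25a23 do not. The stretches run 5' to 3' towards the transcription start, and capitals mark the E-box.
Slc25a15, chr8:22398278-22398527, minus strand: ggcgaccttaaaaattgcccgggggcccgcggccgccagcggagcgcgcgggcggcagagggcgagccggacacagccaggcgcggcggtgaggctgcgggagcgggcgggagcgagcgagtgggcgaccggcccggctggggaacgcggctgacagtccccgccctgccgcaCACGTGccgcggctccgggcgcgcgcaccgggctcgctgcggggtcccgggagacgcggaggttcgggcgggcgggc
Slc25a1, chr16:17928220-17928469, minus strand: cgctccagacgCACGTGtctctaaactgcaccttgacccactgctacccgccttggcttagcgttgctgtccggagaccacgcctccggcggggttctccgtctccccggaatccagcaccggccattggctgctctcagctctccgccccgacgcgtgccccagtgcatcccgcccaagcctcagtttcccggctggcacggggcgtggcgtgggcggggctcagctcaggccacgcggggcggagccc
Slc25a33, chr4:149774268-149774517, minus strand: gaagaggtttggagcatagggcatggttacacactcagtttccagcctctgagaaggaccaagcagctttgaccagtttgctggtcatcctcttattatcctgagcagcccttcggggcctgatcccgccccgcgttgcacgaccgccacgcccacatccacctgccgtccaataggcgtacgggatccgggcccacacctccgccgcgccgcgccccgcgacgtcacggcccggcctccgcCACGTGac
The first base of the E-box lay 77 bases before one of the listed starts of Slc25a15, 239 bases before the start of Slc25a1 and 8 bases before the start of Slc25a33. CACGTG was found in these windows for 7 of 36 carriers (19.4%), 3 of the 10 listed called carriers among them, and for 6.86% of all 27025 genes in the table. Slc25a15 was higher and the other two lower in STZ livers, so carriers with this motif moved in both directions. CCAAT, searched on both strands like the rest, was found for 18 of 36 carriers (50%), 6 of the 10 listed called carriers among them, and 37.5% of all genes. The full cAMP response element TGACGTCA was found for 2 of 36 carriers (5.56%) and 1.77% of all genes, and TCACNCCAC, a sterol regulatory element, for 1 of 36 (2.78%) and 1.22%. TCAAGGTCA, the element of estrogen-related receptors, was found for 0 of 36 and 0.422% of all genes. These are letter matches, not binding sites.

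Mean signals in control livers ran from 4.27 to 12.41 on the log2 scale. The ADP/ATP carrier Slc25a5, which exports ATP from the matrix, had the brightest probe set at 12.41 ± 0.06 (SD, n = 7). It was followed by the phosphate carrier Slc25a3 (11.87 ± 0.04), Slc25a1 (11.85 ± 0.06), the glutathione carrier Slc25a39 (11.63 ± 0.10) and Slc25a47 (11.58 ± 0.24). At the lower end were Slc25a54 (4.27 ± 0.10), the germ-cell ADP/ATP carrier Slc25a31 (4.45 ± 0.06), Slc25a53 (4.97 ± 0.15) and the second ornithine carrier Slc25a2 (4.99 ± 0.11). Of the 46 carriers, 33 lay above the median gene in controls and 25 in the upper quartile. Neighbours in this order often could not be separated, since 26 of 45 adjacent carriers differed by less than the larger of their SDs. Slc25a3 and Slc25a1, for example, were 0.02 apart on the log2 scale. Probe sets bind with different strength, so this is an order of signals and not of transcript numbers. In STZ livers the order was nearly the same, with Spearman's rho = 0.99 between the group means across the 46 carriers, which are not independent replicates, and no carrier moved by more than 5 places. The SD was larger in STZ than in control livers for 37 of 46 carriers, with a median of 0.17 against 0.10.

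**Figure D1:**
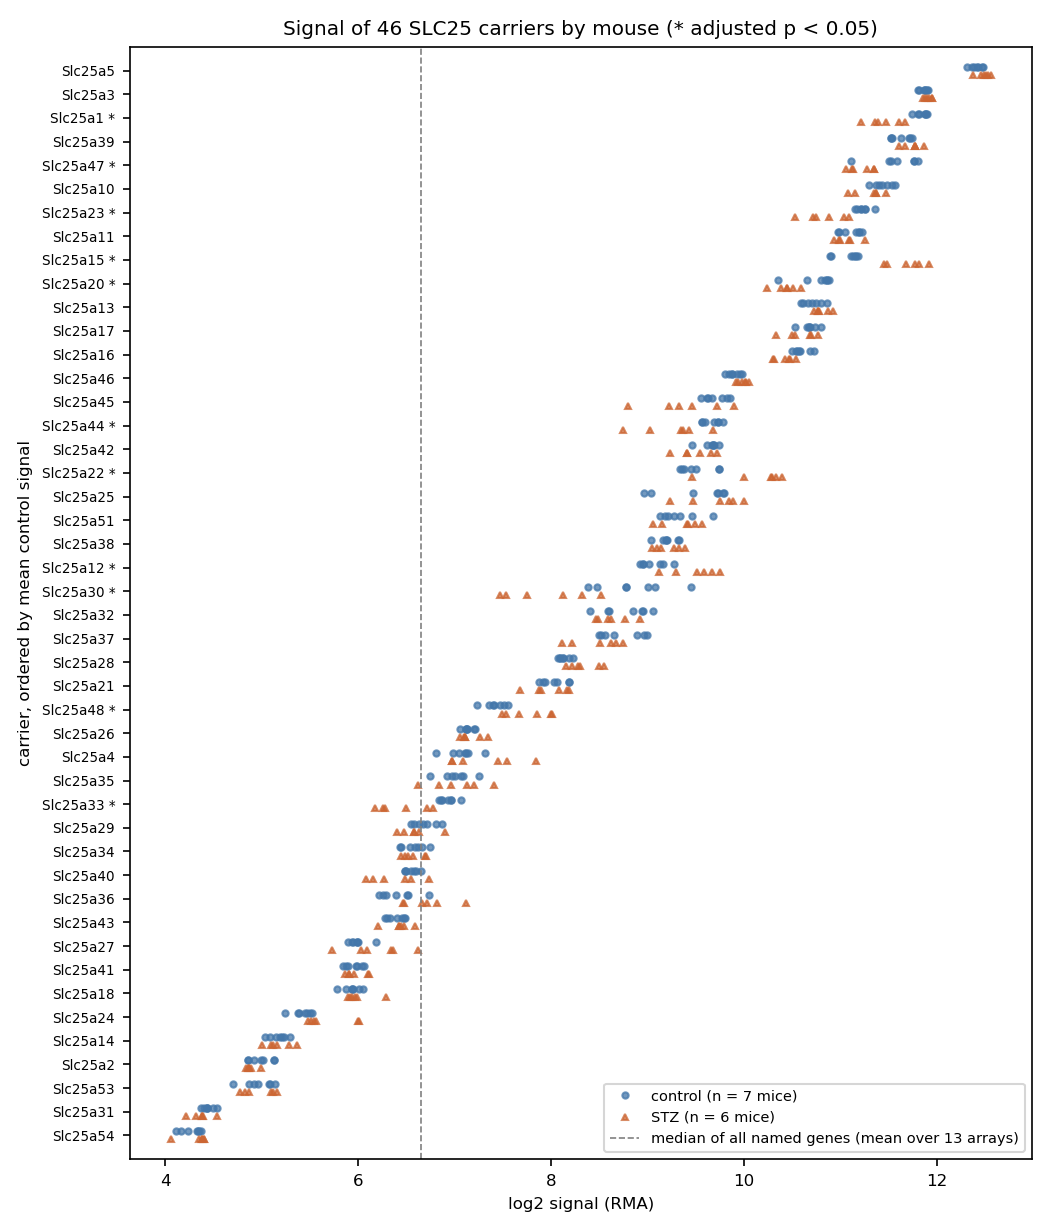
Log2 signal of 46 SLC25 carriers (x axis) in 7 control (circles) and 6 STZ (triangles) livers, 1 point per mouse, ordered by mean control signal, with the median of all named genes as a dashed line and called carriers starred. Slc25a5 is the brightest and Slc25a54 the dimmest, and all 11 starred carriers have control means above the dashed line.

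Among the 9 amino acid carriers 3 rose and 1 fell, the highest number called in any class. That was 44.4% of the class, against 9.12% of all genes and 15.4% of genes brighter than the median gene. No class had more than 9 measured carriers, so the ranking by number also depends on class size. Slc25a15 carries ornithine into the matrix in exchange for citrulline, a step the urea cycle needs. Its signal was lowest at 10.89, median 11.14 and highest at 11.18 in controls, and lowest at 11.45, median 11.73 and highest at 11.92 in STZ livers. All 6 STZ values lay above all 7 controls. The difference was 0.61 ± 0.08 (log2, SE of the fit, as below), a 1.53-fold rise with adjusted p = 0.000177. The other ornithine carrier, Slc25a2, stayed dim in both groups (4.99 ± 0.11, SD, n = 7, and 4.89 ± 0.05, SD, n = 6) and did not pass (adjusted p = 0.354).

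Slc25a22 imports glutamate together with a proton. In controls it ranged from 9.34 over a median of 9.45 to 9.75, and in STZ livers from 9.47 over 10.29 to 10.39. The groups overlapped through STZ replicate 2 alone, which at 9.47 lay among the controls, while the other 5 STZ values started at 10.00. The rise was 0.63 ± 0.13 or 1.54-fold (adjusted p = 0.00526). Slc25a18, the second glutamate carrier, was 5.94 ± 0.09 in control and 6.00 ± 0.15 in STZ livers and did not pass (adjusted p = 0.656).

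Slc25a12, known as aralar, exports aspartate from the matrix in exchange for glutamate, a step of the malate-aspartate shuttle, and is regulated by calcium. Its control values ran from 8.93 over a median of 9.02 to 9.28, and its STZ values from 9.13 over 9.55 to 9.75. Of the 6 STZ values 5 lay above all controls, and STZ replicate 5 was the one inside the control range. The rise was 0.43 ± 0.09 or 1.35-fold (adjusted p = 0.00774). Citrin, Slc25a13, is the isoform of the same exchange for which liver is best known, and its signal was 10.72 ± 0.10 in control and 10.81 ± 0.07 in STZ livers (difference 0.09 ± 0.06, adjusted p = 0.391).

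Slc25a44, which brings branched-chain amino acids into mitochondria, was the amino acid carrier that fell. Control values ran from 9.57 over 9.70 to 9.78 and STZ values from 8.75 over 9.36 to 9.68. STZ replicate 3, at 9.68, lay within the controls and the other 5 below them. The difference was -0.40 ± 0.11 (adjusted p = 0.0334), and the call was lost in 5 of 13 fits that left out an array. Slc25a29, a carrier of basic amino acids (-0.09 ± 0.08), and the glycine carrier Slc25a38 (0.01 ± 0.07) did not pass. The median difference of the 9 was 0.07, and 0.02 without STZ replicate 6.

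Among 9 carriers of nucleotides 2 fell, with a median of 0.08. Slc25a33, a carrier of pyrimidine nucleotides that insulin and IGF-1 induce in cultured cells, ran from 6.85 over 6.94 to 7.07 in controls and from 6.18 over 6.39 to 6.78 in STZ livers, so the groups did not overlap. It fell by 0.48 on the log2 scale (SE 0.09), to 71.7% of control (adjusted p = 0.00293). Its STZ mean of 6.45 lay under the median gene (6.65). Slc25a36, which carries pyrimidine and also guanine nucleotides, differed the other way by 0.29 ± 0.10 without passing (adjusted p = 0.101). Its second, dimmer probe set was 0.21 ± 0.05 and passed when all 21789 probe sets were tested (adjusted p = 0.0215), an analysis chosen after the data were seen.

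Slc25a23 exchanges ATP-Mg for phosphate under the control of calcium and so adjusts the nucleotide content of the matrix. Its values ran from 11.15 over 11.22 to 11.36 in controls and from 10.53 over 10.82 to 11.09 in STZ livers, again without overlap. The difference was -0.40 ± 0.08, or 75.9% of control (adjusted p = 0.00405). The related ATP-Mg carriers Slc25a24 (0.26 ± 0.09), Slc25a25 (0.20 ± 0.16) and Slc25a41 (0.02 ± 0.06) did not pass. Nor did the ADP/ATP carriers Slc25a4 (0.24 ± 0.13), Slc25a5 (0.08 ± 0.05) and Slc25a31 (-0.07 ± 0.05). The 3 probe sets of Slc25a5 differed by 0.08 to 0.09, and since processed copies of this gene exist in the genome, its signal cannot be assigned to 1 locus with certainty. Its 95% interval was -0.02 to 0.18.

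The 4 carboxylate carriers all had lower means in STZ livers, and 1 of them fell, with a class median of -0.10 (-0.06 without STZ replicate 2). Slc25a1 exports citrate to the cytosol, where it is cleaved to acetyl-CoA for lipid synthesis. Control values lay close together, from 11.75 over 11.88 to 11.91, and STZ values from 11.21 over 11.43 to 11.67, below every control. The difference was -0.39 ± 0.07, or 76.1% of control (adjusted p = 0.00136). The dicarboxylate carrier Slc25a10 (-0.14 ± 0.07, adjusted p = 0.245), the oxoglutarate-malate carrier Slc25a11 (-0.05 ± 0.06, adjusted p = 0.716) and the oxodicarboxylate carrier Slc25a21 (-0.04 ± 0.08, adjusted p = 0.843) did not pass.

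Slc25a20, the only acylcarnitine carrier measured, takes acylcarnitines into the matrix for beta-oxidation. It ran from 10.36 over 10.85 to 10.88 in controls and from 10.24 over 10.45 to 10.59 in STZ livers. Control replicate 2, at 10.36, lay inside the STZ range, and the other 6 controls lay above it. The difference was -0.31 ± 0.08 (adjusted p = 0.0250). The call was lost in 5 of 13 fits that left out an array.

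Of 3 carriers related to the uncoupling proteins, Slc25a30 fell and had the largest difference of the family. It ranged from 8.38 over 8.78 to 9.45 in controls and from 7.48 over 7.94 to 8.52 in STZ livers. It was also the most variable called carrier, with SDs of 0.37 (n = 7) and 0.43 (n = 6), and STZ replicate 3 lay within the control range. The difference was -0.89 ± 0.19, or 53.9% of control (adjusted p = 0.00562). Slc25a27 (0.20 ± 0.11) and Slc25a14 (0.00314 ± 0.0633), both known from brain, did not pass.

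Of 9 carriers with an unknown or unsettled substrate 1 rose and 1 fell. Their median of 0.02 had no stable sign, being -0.02 without control replicate 7. Slc25a48 ranged from 7.24 over 7.41 to 7.56 in controls and from 7.50 over 7.76 to 8.02 in STZ livers, with 4 of 6 STZ values above all controls (0.34 ± 0.09, adjusted p = 0.0220). Slc25a47 ranged from 11.11 over 11.59 to 11.80 in controls and from 11.06 over 11.20 to 11.35 in STZ livers (-0.37 ± 0.10, adjusted p = 0.0264). Control replicate 3, at 11.11, lay inside the STZ range, and the other 6 controls lay above it. The call was lost in 6 of 13 fits that left out an array for Slc25a47 and in 2 of 13 for Slc25a48. Slc25a45 (-0.30 ± 0.13, adjusted p = 0.194) and Slc25a46, an outer membrane protein involved in mitochondrial shape (0.09 ± 0.05, adjusted p = 0.282), did not pass. The remaining 5, Slc25a34, Slc25a35, Slc25a43, Slc25a53 and Slc25a54, differed by -0.01 to 0.06.

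None of the 8 measured carriers of cofactors and glutathione passed in limma (1 of 8 at an unadjusted p under 0.05), and the exact rank-sum test called 1. That one was Slc25a16, linked to coenzyme A supply, at 10.60 ± 0.08 (SD, n = 7) in control and 10.42 ± 0.10 (SD, n = 6) in STZ livers, a difference of -0.17 ± 0.06 with adjusted p = 0.0648 in limma and 0.0427 in the rank-sum test. The coenzyme A carrier Slc25a42 was -0.15 ± 0.07, the glutathione carriers Slc25a39 and Slc25a40 were 0.12 ± 0.06 and -0.17 ± 0.09, and the NAD carrier Slc25a51 was 0.02 ± 0.10. The peroxisomal Slc25a17 (-0.10 ± 0.07), the S-adenosylmethionine carrier Slc25a26 (0.03 ± 0.06) and the folate and FAD carrier Slc25a32 (-0.13 ± 0.10) did not pass either. None of the 3 carriers of inorganic ions passed in limma, with 2 of 3 at an unadjusted p under 0.05 and 0 in the rank-sum test after adjustment. These were the mitoferrins, which import iron, with Slc25a28 at 0.20 ± 0.06 (adjusted p = 0.0650) and Slc25a37 at -0.25 ± 0.11 (adjusted p = 0.233), while Slc25a3 was 0.04 ± 0.04 with a 95% interval of -0.05 to 0.13.

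**Figure D2:**
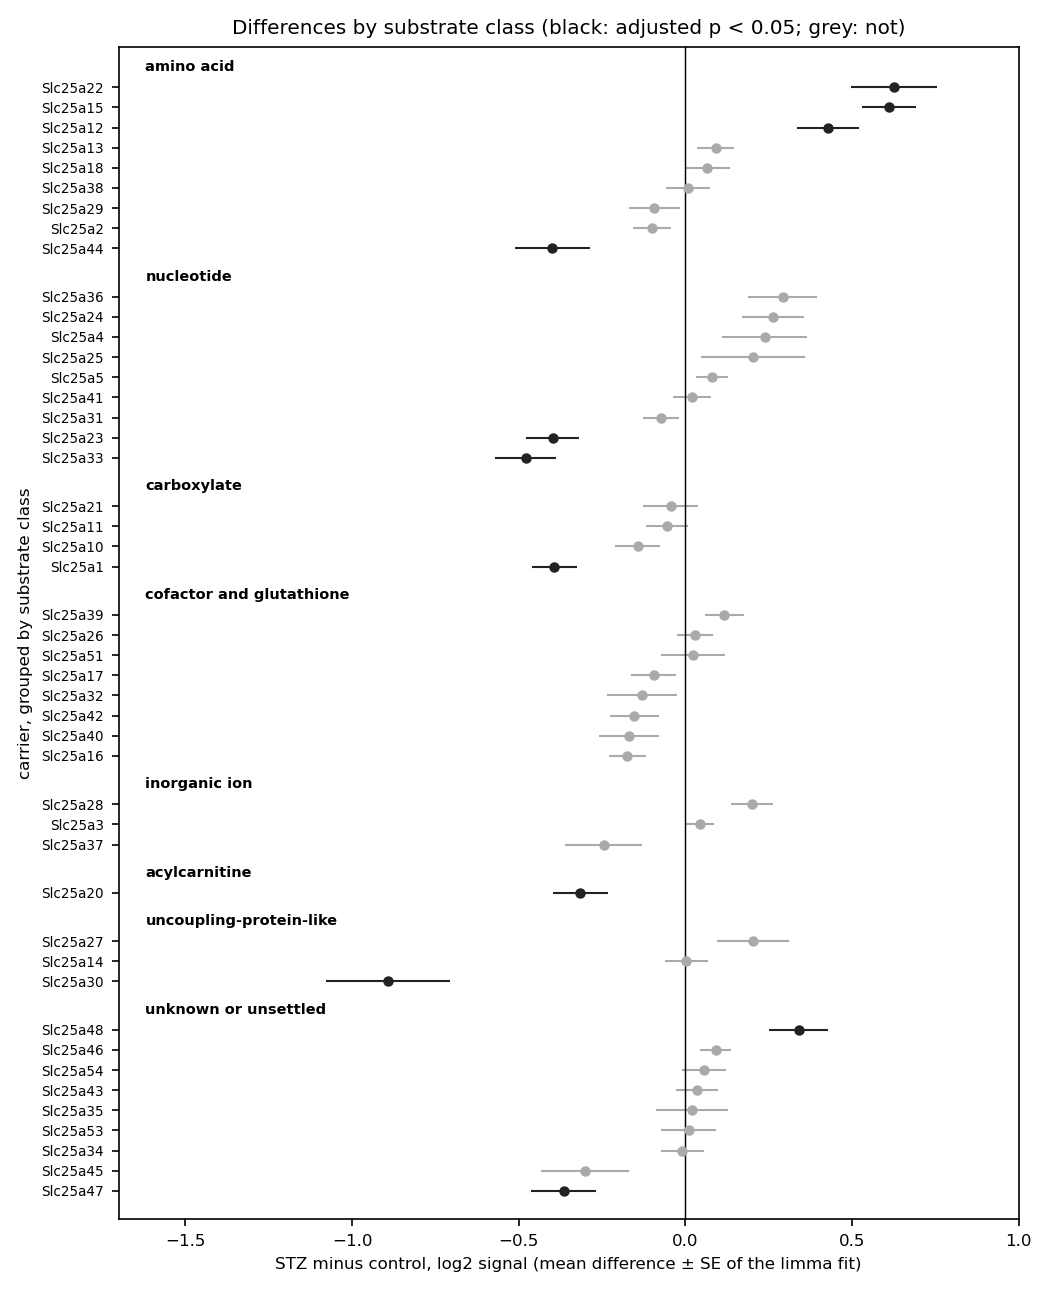
STZ minus control difference in log2 signal (x axis, mean difference ± SE of the limma fit, 7 control and 6 STZ livers) for each of 46 carriers, grouped by substrate class, with called carriers in black. Amino acid carriers lie on both sides of 0, from Slc25a22 at 0.63 to Slc25a44 at -0.40, all 4 carboxylate carriers lie below 0, and Slc25a30 lies lowest at -0.89.

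The STZ livers did not depart from the controls to the same degree. STZ replicate 5 was the STZ array closest to the controls for 6 of the 11 called carriers, in a tie with replicate 6 for Slc25a47 at 11.354, and it lay beyond all controls for 7. STZ replicates 1 and 4 each lay beyond all controls for 10 of the 11. STZ replicate 2 was the farthest from the controls for 4 carriers and the closest for 2, Slc25a15 and Slc25a22. Without STZ replicate 5 all 11 carriers passed, and Slc25a27 and Slc25a28 passed in addition.

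**Figure D3:**
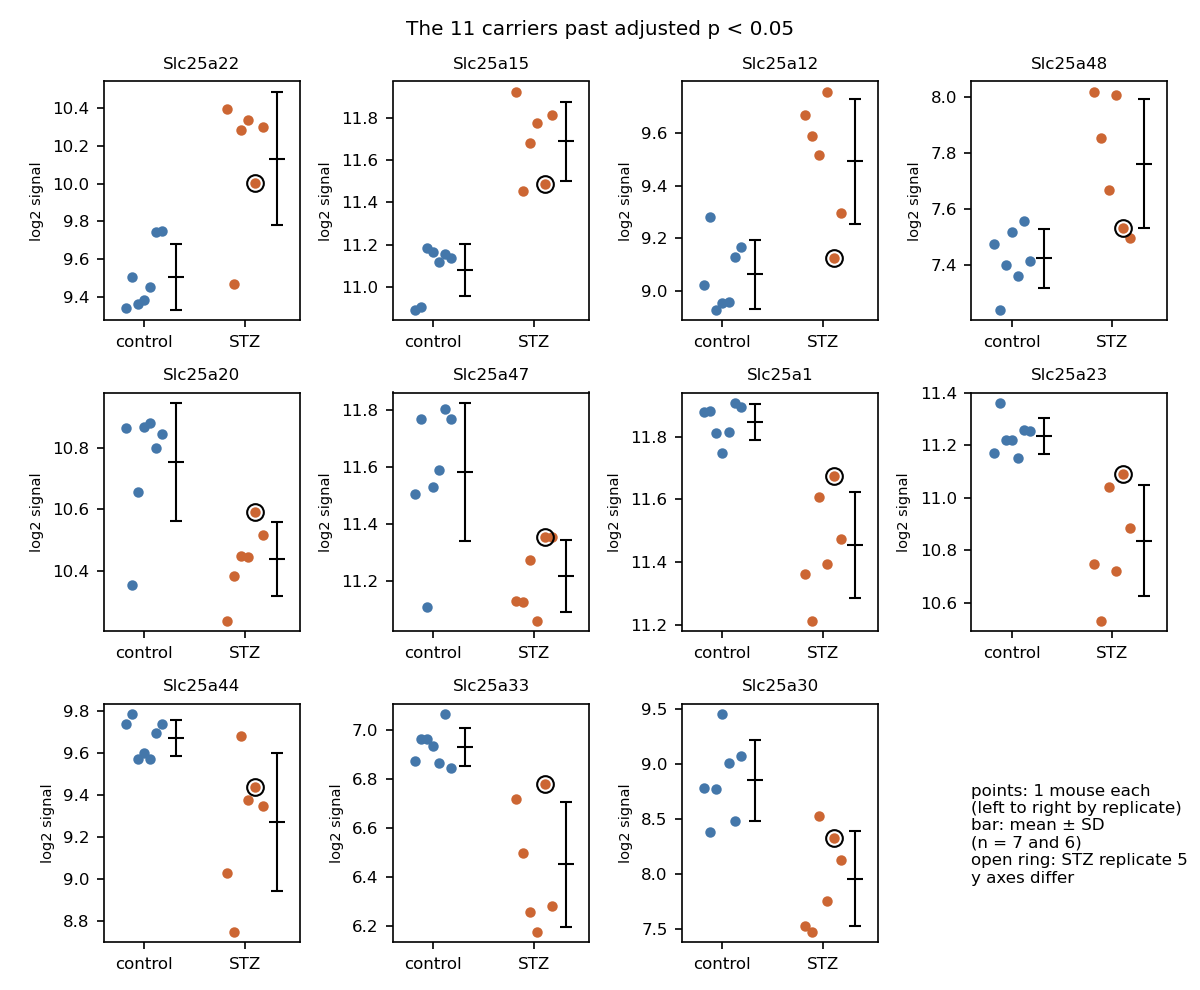
Log2 signal of the 11 called carriers by mouse (y axis, with a different range per panel), for 7 control and 6 STZ livers, with mean ± SD as bars and STZ replicate 5 ringed. The groups are separate for Slc25a15, Slc25a1, Slc25a23 and Slc25a33, and the ringed point is the STZ value nearest the controls in 6 panels, tied with replicate 6 in that of Slc25a47.

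Carriers with a shared substrate were also compared with each other, and 7 of 9 pairs passed. Slc25a15, Slc25a33, Slc25a12, Slc25a22 and Slc25a23 were already called alone on the same arrays. The tests of their pairs therefore repeat those calls in part and are not independent of them. For each pair the difference in log2 signal between both carriers was formed within each array and compared between groups by an exact 2-sided permutation test over all 1716 splits of the 13 mice. The smallest p this test can give is 0.000583, and p-values were adjusted over the 9 pairs. Single carriers were adjusted over all genes, so the share of pairs that passed cannot be set against the share of carriers. The shift against controls was 0.71 for Slc25a15 minus Slc25a2 (exact permutation, adjusted p = 0.00262) and -0.77 for Slc25a33 minus Slc25a36 (exact permutation, adjusted p = 0.00262). In both pairs the values of the groups did not overlap. For the aspartate-glutamate carriers, Slc25a12 minus Slc25a13 was -1.65 ± 0.14 (SD, n = 7) in control and -1.32 ± 0.18 (SD, n = 6) in STZ livers, a shift of 0.34 towards Slc25a12 (exact permutation, adjusted p = 0.0157). Slc25a22 minus Slc25a18 shifted by 0.56 (exact permutation, adjusted p = 0.0157).

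The mitoferrins shifted against each other, and neither passed alone under the heavier adjustment over all genes. Before adjustment, p was 0.0067 for Slc25a28 and 0.048 for Slc25a37 (limma), and 0.0041 for the pair (exact permutation). The pass of this pair therefore does not show that the pair separated the groups better than Slc25a28 alone. Slc25a28 minus Slc25a37 was -0.59 ± 0.20 (SD, n = 7) in control and -0.15 ± 0.22 (SD, n = 6) in STZ livers, a shift of 0.45 (exact permutation, adjusted p = 0.0122). Slc25a37 serves red cell precursors, and the erythroid marker Alas2 was lower in the same STZ livers (-1.58 ± 0.26, adjusted p = 0.000807). The part of blood cells in this shift was not tested. Slc25a23 minus Slc25a25 shifted by -0.60 and Slc25a39 minus Slc25a40 by 0.29 (exact permutation, adjusted p = 0.0315 for each), and these calls were lost in 6 and 7 of 13 fits that left out an array. Slc25a4 minus Slc25a5 shifted by 0.16 (exact permutation, adjusted p = 0.300; 0.06 without STZ replicate 1) and Slc25a16 minus Slc25a42 by -0.02 (exact permutation, adjusted p = 0.847). Slc25a2, Slc25a18, Slc25a36 and Slc25a40 were measured under the median gene of 6.65 in controls, at 4.99, 5.94, 6.42 and 6.55. In controls their pairs set a dim carrier against a brighter one. For Slc25a33 and Slc25a36 the order was reversed in STZ livers, with means of 6.45 and 6.71. The shift of 0.71 in the ornithine pair was mostly that of Slc25a15 itself, which rose by 0.61.

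**Figure D4:**
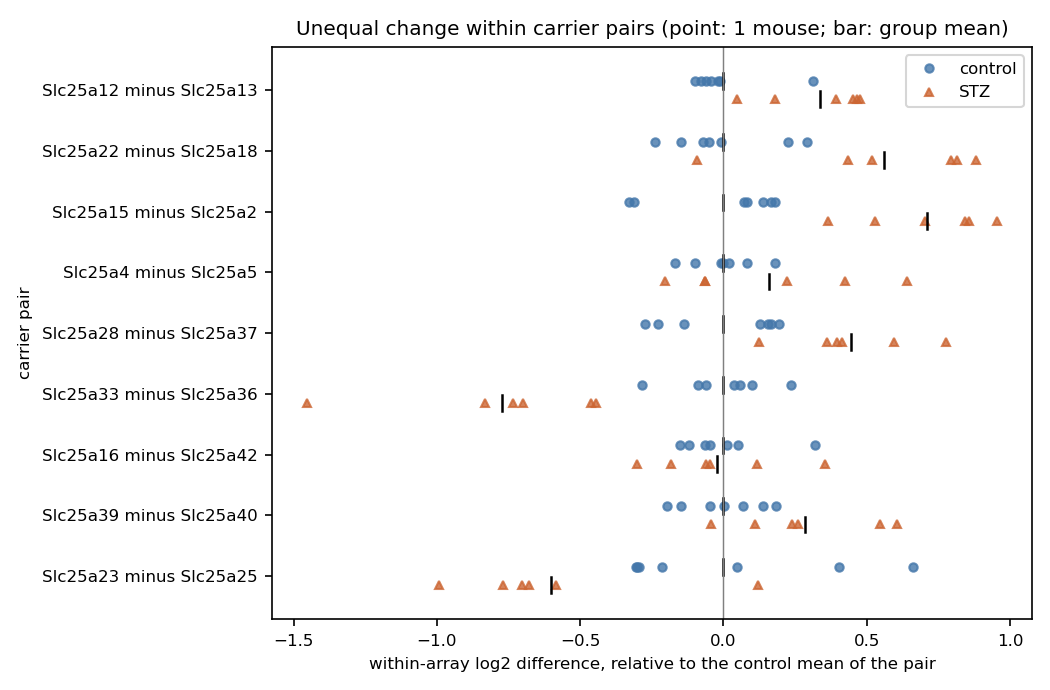
Within-array difference in log2 signal between 2 carriers of a pair (x axis, relative to the control mean of that pair) for 9 pairs in 7 control (circles) and 6 STZ (triangles) livers, with group means as bars. STZ points lie right of all controls for Slc25a15 minus Slc25a2 and left of all controls for Slc25a33 minus Slc25a36, and the groups mix for Slc25a16 minus Slc25a42.

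The enzymes on either side of these carriers were read as whole pathway lists. Over all genes 5.09% rose and 4.04% fell. Bright genes were called more often, with 19.4% called in either direction above the upper quartile of mean signal. All measured urea cycle, citrate and redox shuttle enzymes were that bright, so the shares over all genes are low for their counts. Of 5 measured urea cycle enzymes, 3 rose, with a median of 0.16. They were argininosuccinate lyase Asl (0.52 ± 0.08, adjusted p = 0.000872), arginase Arg1 (0.31 ± 0.08, adjusted p = 0.0266) and carbamoyl phosphate synthetase Cps1 (0.16 ± 0.04, adjusted p = 0.0307). Ornithine transcarbamylase Otc, which uses the ornithine that Slc25a15 brings in, was -0.11 ± 0.06 and did not pass (adjusted p = 0.308). Of 7 enzymes of mitochondrial glutamate metabolism, 1 rose, ornithine aminotransferase Oat (0.52 ± 0.08, adjusted p = 0.000604).

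All 6 enzymes fell that were listed as making citrate, cleaving it or acting downstream of it, with a median of -1.07. Over all genes 4.04% fell, and above the upper quartile of mean signal 19.4% were called in either direction. The list was chosen with earlier results of these data known, so the count describes these 6 genes only. Malic enzyme Me1 (-1.95 ± 0.29), which supplies NADPH, the acetyl-CoA carboxylase Acacb (-1.37 ± 0.23) and fatty acid synthase Fasn (-1.30 ± 0.24) had the largest differences. The ATP citrate lyase Acly, which cleaves the exported citrate, fell by 0.83 on the log2 scale (SE 0.18, adjusted p = 0.00606). The other 2 were the acetyl-CoA carboxylase Acaca (-0.59 ± 0.15) and citrate synthase Cs (-0.30 ± 0.09), which makes citrate in the matrix. The fall of Slc25a1, at -0.39, was larger than that of Cs and smaller than those of the other 5. Whether these falls differ in size was not tested.

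In the redox shuttles 2 of 6 enzymes rose and 2 fell. Cytosolic aspartate aminotransferase Got1 (0.58 ± 0.08) and mitochondrial malate dehydrogenase Mdh2 (0.29 ± 0.06) of the malate-aspartate shuttle were higher, as was Slc25a12. Both glycerophosphate dehydrogenases fell, the mitochondrial Gpd2 by 0.71 and the cytosolic Gpd1 by 0.48 on the log2 scale. Got2 (-0.05 ± 0.04) and Mdh1 (0.09 ± 0.06) did not pass, nor did the oxoglutarate-malate carrier Slc25a11 of the same shuttle.

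None of 3 carnitine shuttle enzymes passed in limma beside Slc25a20, with 1 of 3 at an unadjusted p under 0.05 and 0 in the rank-sum test after adjustment. The lowest p belonged to carnitine acetyltransferase Crat (-0.36 ± 0.12, adjusted p = 0.0751). Of 12 genes that import carriers into the inner membrane, 1 fell, the small chaperone Timm9 (-0.41 ± 0.08, adjusted p = 0.00309), at a list median of -0.01. Of 8 other inner membrane carriers, 1 rose, the sideroflexin Sfxn2 (0.27 ± 0.07, adjusted p = 0.0174). The share called was 8.33% of the import genes and 12.5% of the other inner membrane carriers. It was 9.12% of all genes and 15.4% of genes brighter than the median gene. All genes of both lists but Sfxn4 were that bright. None of the 4 SLC25 genes measured under other symbols (Ucp1, Ucp3, Mtch1 and Mtch2) and none of 4 ATP synthase subunits passed in limma. Before adjustment 0 of these 8 genes had p under 0.05 there, and 0 passed the adjusted rank-sum test. The median was 0.03 for the former and 0.07 for the latter.

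**Figure D5:**
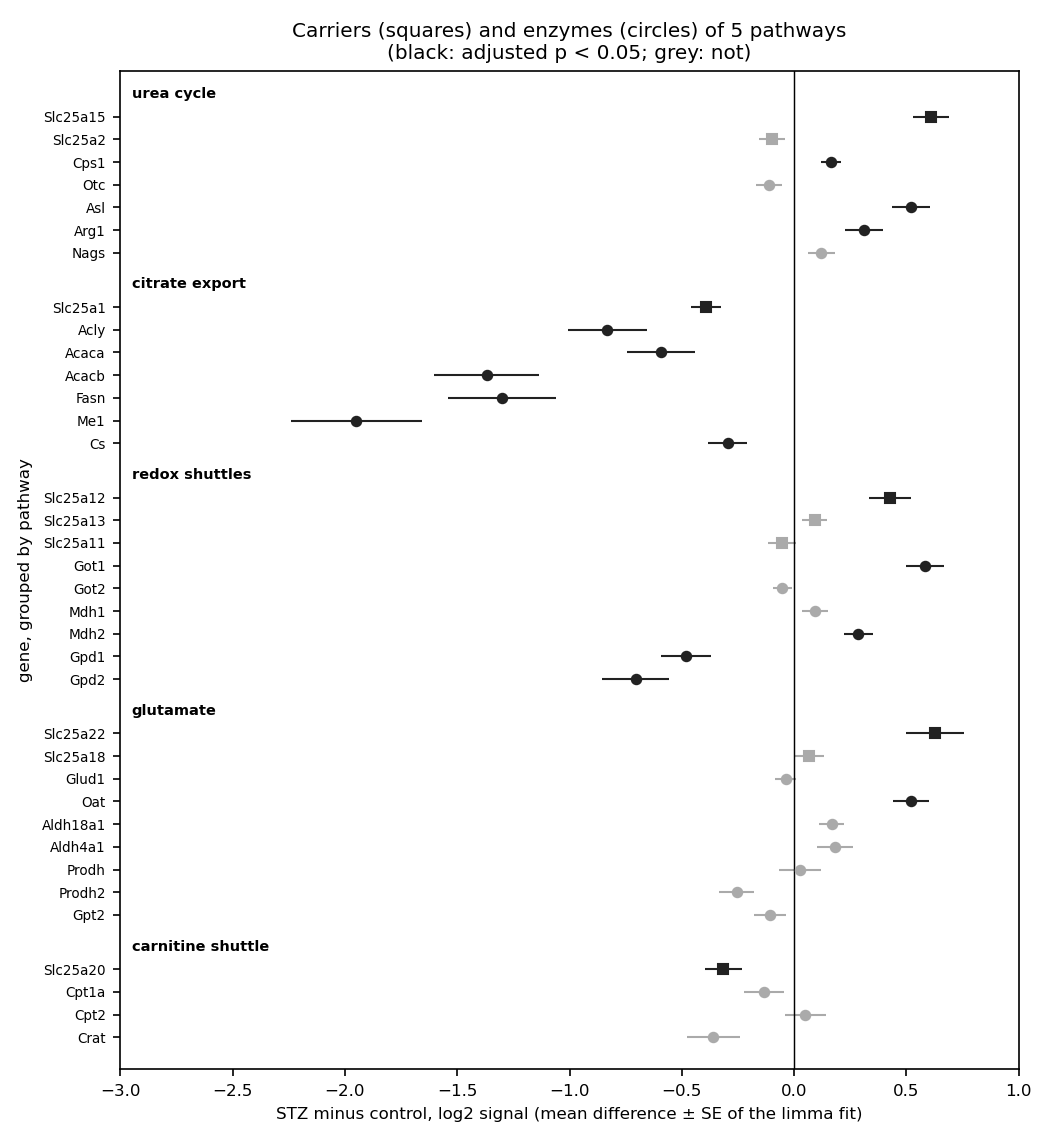
STZ minus control difference in log2 signal (x axis, mean difference ± SE of the limma fit, 7 control and 6 STZ livers) for carriers (squares) and enzymes (circles) of 5 pathways, with called genes in black. All 6 citrate enzymes and Slc25a1 lie left of 0, Slc25a15 lies right of 0 with Asl, Arg1 and Cps1, and Slc25a12 lies on the side of Got1 while Gpd1 and Gpd2 lie on the other.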

How the data were processed

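Liver RNA of 7 control and 6 STZ mice was measured on 1 Affymetrix array each. The authors deposited log2 signals for 35556 probe sets, computed by RMA (robust multi-array average) with Expression Console 1.2 from Affymetrix, as listed in the submitters' processing notes. RMA gives all arrays a common distribution, so a change in total RNA per cell leaves no trace. Which annotation version was used is not given in the sources used here. Array medians lay between 6.22 and 6.31, and correlations across genes were 0.993 to 0.997 among control and 0.986 to 0.995 among STZ arrays. The number of arrays limits precision.

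The platform annotation gave 1 symbol for 21789 probe sets, of which 21698 were found by Entrez identifier in RefSeq (GRCm38.p6). Groups were tested 2-sided with lmFit and eBayes (limma 3.58.1, R 4.3.3), with no filter, and p-values were adjusted over all 19938 genes. The test was checked on simulated data with normal noise of the same SD for all genes and both groups. The measured SDs differed between genes and groups, and the check does not cover that. The members and lists were chosen with earlier results of these data known. Named were the called carriers, the 5 brightest, the carriers of 10 pairs (9 with both measured), the lowest p of classes without a call and up to 3 genes per partner list. The other carriers are given so that each member is accounted for, and Otc, Mdh1, Mdh2, Got2, Acly, Acaca and Cs were added after their values were seen. Alternatives were a brightness filter, other variance and scaling choices, the mean of a gene's probe sets, a rank-sum test, a replicate block, the 4 consecutively numbered STZ arrays and leaving out each array.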

Additional observations from a re-analysis of the deposited data

Results flagged for a closer look

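In 6 of 92 sets of values (46 carriers in each group), the highest or lowest mouse stood apart from the rest by more than Dixon's 95% limit, where chance flags about 1 in 20. Slc25a20 and Slc25a47 had a low control and were both called. Slc25a20 was 10.356 in control replicate 2 with the next control at 10.657, and without that array its difference was -0.38 (limma, adjusted p = 0.00155). Slc25a47 was 11.111 in control replicate 3 with the next at 11.505, and without that array its difference was -0.44 (limma, adjusted p = 0.00143). Slc25a27 was 6.185 in control replicate 2 with the next at 5.998. In STZ livers, Slc25a2 was 4.994 in replicate 2 with the next at 4.886, Slc25a18 was 6.295 in replicate 6 with the next at 5.989, and Slc25a54 was 4.059 in replicate 6 with the next at 4.351. All values of these last 4 sets lay under the median gene.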

How the results depend on the processing

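The main analysis called 11 carriers, 4 higher and 7 lower. With genes brighter than the median, trend and robust variance, median-centred arrays, quantile normalization or the mean of probe sets, all 11 remained called and 0 to 2 were added (Slc25a16, Slc25a28 or Slc25a36). The exact rank-sum test called 5 (1 higher, 4 lower), of which 4 were shared with limma, and 1088 of all genes against 1819. The 4 STZ arrays with consecutive label numbers gave 15 called carriers, 7 of them higher and 11 shared. Leaving out 1 array at a time gave 7 to 13 called carriers, 3 to 6 higher and 4 to 8 lower, with the fewest without STZ replicate 1.

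Replicate numbers were set as a block although they did not pair the samples. The correlations of same-numbered mice were -0.09 to 0.19, and 1 of 6 correlated best with its own number. The replicate block gave 7 carriers, all shared with the main 11, 4 of them lower, and 1256 genes in all.

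Among genes brighter than the median, where fewer carriers were tested, the class median was 0.26 for amino acid carriers and -0.89 for uncoupling-protein-like carriers, of which 1 is that bright. Quantile normalization gave 0.027 for nucleotide carriers. With the 4 consecutively numbered STZ arrays, the shift was 0.0902 for Slc25a16 minus Slc25a42 (exact permutation, adjusted p = 0.439), 0.27 for Slc25a39 minus Slc25a40 (exact permutation, adjusted p = 0.0511) and 0.31 for Slc25a4 minus Slc25a5 (exact permutation, adjusted p = 0.0468). The cause was not tested. Leave-one-out ranges were -0.0958 to 0.0354, 0.22 to 0.35 and 0.06 to 0.23 for these pairs, and -0.74 to -0.49 for Slc25a23 minus Slc25a25. The uncoupling-protein-like median ran from -0.04 to 0.04. Of 522 values for single named carriers under all alternatives, 483 kept direction and side of the threshold, 29 lost and 10 gained a call, and 0 reversed.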
